A study of Mus musculus with 2 samples.

Results

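*Xcr1*, *Itgae*, *Cadm1*, *Clec9a* and *Wdfy4* are 5 genes by which conventional type 1 dendritic cells (cDC1s) are usually recognised or through which they take up and cross-present antigen. They were taken by name, and all 5 were among the 18049 genes listed for both libraries of a CITEseq experiment, in which mRNA and DNA-barcoded surface antibodies are counted in the same single cells. The cells were live MHCIIhi CD11c+ B220- cells sorted from lymph nodes of B6 mice, either naive or immunized with OVA plus papain in both rear footpads 1 day earlier, with 1 library per condition. The labels name popliteal nodes for both libraries, whereas the methods of the study give them for papain-immunized mice and describe pooled skin-dLNs of naive mice, so immunization, node site and library cannot be told apart. Cells are not replicates, and no test was made. The values below were summed over the 3042 naive and 7306 papain cells that carried a class from the authors, and 95% intervals cover counting error only.

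The classes were cDC1s, Langerhans cells (LCs) and cDC2s with low, intermediate or high CD301b (CD301blo, CD301bint and CD301bhi). Among them, 578 naive and 235 papain cells were cDC1s, with medians of 15806.5 and 12399 mRNA molecules (UMIs) per cell. Medians of the other classes ran from 10767.5 to 15167 UMIs (naive) and from 11351 to 18290 UMIs (papain). The authors set the classes from the antibodies, XCR1 and CD103 included, so a difference in these antibodies between classes describes the labels and is not a result. The label can be set against mRNA. *Irf8*, the transcription factor on which cDC1s depend, was at 566 CPM (UMIs scaled to counts per 1000000 UMIs of the group) in naive cDC1s against 157 to 373 CPM in the other classes, and at 830 CPM against 209 to 530 CPM in the papain library. *Batf3*, its partner in cDC1 development, was at 241 CPM in naive cDC1s against 208 to 241 CPM elsewhere, and at 381 CPM in papain cDC1s against 196 to 266 CPM. Of the 7 listed cDC1 transcription factors, *Irf8* and *Batf3* among them, 3 were higher in naive cDC1s than in the other classes together, and 5 in papain cDC1s. The share of all genes that were higher was not counted, so these numbers have no background beside them. The 7 summed to 2707.5 CPM in naive cDC1s against 2486 to 3931 CPM elsewhere, and to 3216 CPM in papain cDC1s against 2330 to 2762 CPM. *Id2* alone gave 1674 CPM of the naive and 1755 CPM of the papain cDC1 sum.

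cDC1s take up material from dying cells and present it to CD8+ T cells, a process called cross-presentation. XCR1 is the receptor for the chemokine XCL1, which CD8+ T cells and natural killer cells release. CD103, the αE integrin chain encoded by *Itgae*, pairs with the β7 chain (*Itgb7*) and binds E-cadherin. CADM1 is an adhesion molecule that binds CRTAM on activated T cells. CLEC9A, also called DNGR-1, recognises actin filaments laid bare by dead cells, and WDFY4 is a large BEACH-domain protein that cDC1s need to cross-present cell-associated antigen. Migratory cDC1s of the skin can carry CD103 on their surface, and so do many T cells of epithelia.

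On the GRCm38.p6 assembly, RefSeq places *Xcr1* at chr9:123852315-123862029, *Itgae* at chr11:73090505-73147449, *Cadm1* at chr9:47530170-47862280, *Clec9a* at chr6:129408862-129424764 and *Wdfy4* at chr14:32959547-33193855. *Itgae* overlaps *Haspin* and *Wdfy4* overlaps *Lrrc18*, and both of these were listed in the data. *Cadm1* overlaps *Gm10677* and *Clec9a* overlaps *Clec12b*, which were not used here. Whether reads were assigned by strand is not given in the sources used here. The barcodes by which the XCR1 and CD103 antibodies were counted are shown because the comparison of mRNA with surface protein rests on them.
XCR1 antibody: tccattacccacgtt
CD103 antibody: ttcattagcccgctg

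The 250 bases before the RefSeq start are shown for *Xcr1* and *Clec9a*, the pair of the 5 genes whose levels went together most closely over the groups. Both are written 5′ to 3′ in the direction of the gene, with matches to the searched motifs in capitals. The *Xcr1* stretch lies at chr9:123862030-123862279 on the minus strand and the *Clec9a* stretch at chr6:129408612-129408861 on the plus strand.
Xcr1: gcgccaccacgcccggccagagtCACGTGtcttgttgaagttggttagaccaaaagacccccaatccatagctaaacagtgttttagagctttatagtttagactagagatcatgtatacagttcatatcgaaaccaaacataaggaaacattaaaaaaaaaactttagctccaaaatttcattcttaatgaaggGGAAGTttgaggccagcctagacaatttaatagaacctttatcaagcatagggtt
Clec9a: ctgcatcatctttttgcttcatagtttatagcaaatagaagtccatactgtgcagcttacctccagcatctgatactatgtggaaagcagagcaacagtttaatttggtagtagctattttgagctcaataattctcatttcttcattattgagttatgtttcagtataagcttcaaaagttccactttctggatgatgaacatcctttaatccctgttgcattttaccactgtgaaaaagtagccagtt
The motifs searched on both strands were GGAA and GAAA with 2 free bases between them (the composite site of PU.1 and IRF factors), GAAA and GAAA with 2 free bases (the interferon-stimulated response element), TGANTCA (AP-1, the family of BATF3), GGAAGT (an ETS core) and CACGTG (an E-box). Matches to the composite site can overlap with those to the response element and to the ETS core. In *Xcr1* an ETS core began at -55 and an E-box at -227 from the start, letters that 19.7% and 6.02% of 32851 promoter stretches of this length held. In *Clec9a* none of the 5 motifs was found. The composite site, the interferon-stimulated response element and AP-1 letters were found in 2.30%, 2.98% and 6.75% of all stretches and in neither of these. The matches are letters in a window and not measured sites.

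In each library, 4 of the 5 genes were at their highest level in cDC1s. The share of all genes that were highest in cDC1s was not counted, so these numbers have no background beside them. The exceptions were *Wdfy4* in naive mice, which was highest in CD301blo cDC2s, and *Itgae* in papain-immunized mice, which was highest in LCs. All 5 genes were sparse, and 56.7% of naive and 73.2% of papain cDC1s held no UMI of any of them. Of the cells of other classes 78.4 to 89.1% held none in naive mice, as did 82.2 to 96.1% after papain.

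**Figure D1:**
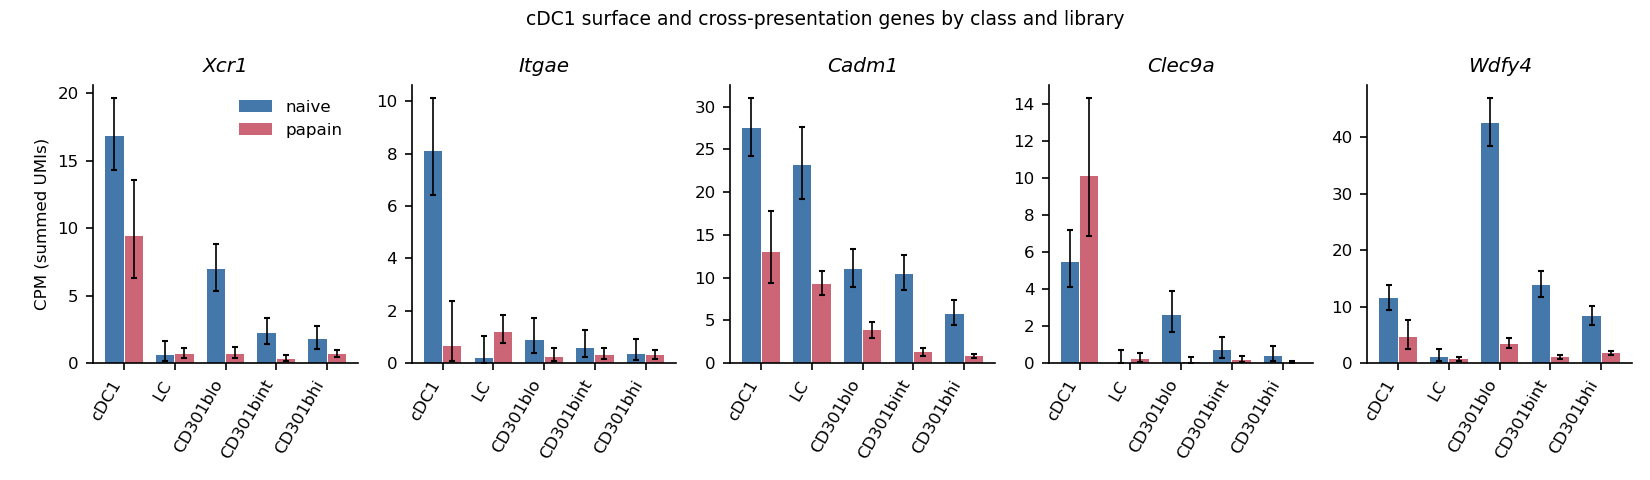
Levels of the 5 genes (CPM of summed UMIs, linear axes that start at 0) in the 5 classes of the naive and papain libraries, with exact 95% Poisson intervals. *Xcr1* and *Clec9a* are highest in cDC1s of both libraries, *Wdfy4* is highest in naive CD301blo cDC2s, and *Itgae* stands at 8.11 CPM in naive cDC1s and at or below 1.2 CPM in every other group.

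*Xcr1* was at 16.9 CPM (interval 14.3 to 19.7) in naive cDC1s, from 160 UMIs. The next level was 6.94 CPM (5.34 to 8.86) in CD301blo cDC2s, followed by 2.23 CPM in CD301bint cDC2s, 1.75 CPM in CD301bhi cDC2s and 0.564 CPM in LCs. The intervals of cDC1s and CD301blo cDC2s stood clear of each other and of the rest, while those of CD301bint and CD301bhi cDC2s overlapped. After papain *Xcr1* was at 9.44 CPM (6.32 to 13.6) in cDC1s and at 0.306 to 0.672 CPM in the other classes. Against all other classes together, the log2 ratio (with 1 CPM added to both levels) was 2.15 (1.84 to 2.44) in naive and 2.73 (2.21 to 3.19) in papain cDC1s.

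Cells with an *Xcr1* UMI made up 55 of 578 naive cDC1s (9.52%, 7.25 to 12.2%) and 16 of 235 papain cDC1s (6.81%, 3.94 to 10.8%). Thinned to 8392 UMIs per cell, the shares were 6.53% and 4.49%. LCs, which should lack the receptor, gave 0.682% of 440 naive and 1.36% of 881 papain cells, below the shares in cDC1s. The UMIs were unevenly spread. In the naive library 3 of the 578 cDC1s held 77 of the 160 UMIs, and in the papain library 3 of 235 held 13 of 29. Without the deepest 5% of cells of each library, taken as possible doublets, *Xcr1* was at 11.2 CPM in naive and 6.58 CPM in papain cDC1s.

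*Clec9a* was at 5.48 CPM (4.09 to 7.18) in naive and at 10.1 CPM (6.85 to 14.3) in papain cDC1s. In naive mice it was at 2.60 CPM (1.67 to 3.87) in CD301blo cDC2s and at 0.677 and 0.350 CPM in CD301bint and CD301bhi cDC2s. No UMI was found in 440 naive LCs, where 3 counts would be 0.564 CPM. In papain-immunized mice the other classes were at 0.0198 to 0.218 CPM, 10 UMIs in all against 31 in the 235 cDC1s. The log2 ratio of cDC1s to the other classes was 1.72 (1.29 to 2.11) for naive and 3.35 (2.97 to 3.60) for papain-immunized mice. The gene was detected in 24 naive cDC1s (4.15%, 2.68 to 6.12%) and in 22 papain cDC1s (9.36%, 5.96 to 13.8%). In naive cDC1s 3 cells held 23 of the 52 UMIs, and in papain cDC1s 3 held 8 of 31.

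*Cadm1* was at 27.5 CPM (24.3 to 31.0) in naive cDC1s and at 23.1 CPM (19.2 to 27.6) in naive LCs, with overlapping intervals. CD301blo, CD301bint and CD301bhi cDC2s were at 10.9, 10.4 and 5.78 CPM. *Cadm1* in papain-immunized mice was at 13 CPM (9.30 to 17.7) in cDC1s and at 9.26 CPM (7.92 to 10.8) in LCs, again with overlap, and 0.811 to 3.82 CPM in cDC2s. Of the 69 UMIs behind the value for papain CD301blo cDC2s, 41 lay in 1 cell. *Cadm1* was the most widely detected of the 5 genes in cDC1s, with UMIs in 27.2% of the naive and 12.8% of the papain cells, and 88 of 440 naive LCs and 13.6% of papain LCs held a UMI of it. Counted as at most 1 UMI per cell, *Cadm1* was no longer highest in naive cDC1s.

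*Wdfy4* had another order in naive mice. It was at 42.6 CPM (38.5 to 47.0) in CD301blo cDC2s and 13.8 CPM (11.7 to 16.3) in CD301bint cDC2s, compared with 11.5 CPM (9.43 to 13.8) in cDC1s, 8.32 CPM (6.73 to 10.2) in CD301bhi cDC2s and 1.13 CPM in LCs. The interval of cDC1s overlapped with those of CD301bint and CD301bhi cDC2s. In papain-immunized mice cDC1s were at 4.56 CPM (2.49 to 7.65) and CD301blo cDC2s at 3.38 CPM (2.58 to 4.34), which overlapped, and the other classes at 0.654 to 1.78 CPM. The log2 ratio of cDC1s to the other classes was -0.57 (-0.85 to -0.30) for naive and 1.06 (0.37 to 1.71) for papain-immunized mice. In naive cDC1s 3 of 578 cells held 43 of the 109 UMIs. The 14 UMIs of papain cDC1s lay in 8 of 235 cells (3.40%, 1.48 to 6.60%), and 3 cells held 9 of them. Of papain CD301blo and CD301bhi cDC2s, 2.38% and 2.45% held a UMI. The intervals of the ratios do not cover this uneven spread.

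Read against the authors' mRNA clusters of naive cDC2s, *Wdfy4* was concentrated in the cells of cluster 5. There it was detected in 132 of 246 cells (53.7%) at 116 CPM (106 to 126). These cells held 566 of the 637 UMIs of all naive classes other than cDC1s. In the other 6 clusters the gene was at 0.703 to 8.81 CPM. *Cadm1* was at 45.2 CPM (39.5 to 51.6) in cluster 5 and at no more than 2.94 CPM in the others. *Xcr1* was at 12.7 CPM (9.73 to 16.3), *Clec9a* at 4.71 CPM (2.98 to 7.06) and *Itgae* at 0.409 CPM in cluster 5, of which 58.1% of cells were classed CD301blo. The clusters were made from the mRNA of the same cells, so these values describe the clusters and are no test. Their numbers are those given with the data and were not matched to the 5 cDC2 subclusters that the study describes. After papain no cDC2 cluster exceeded 9.25 CPM of *Wdfy4*.

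**Figure D2:**
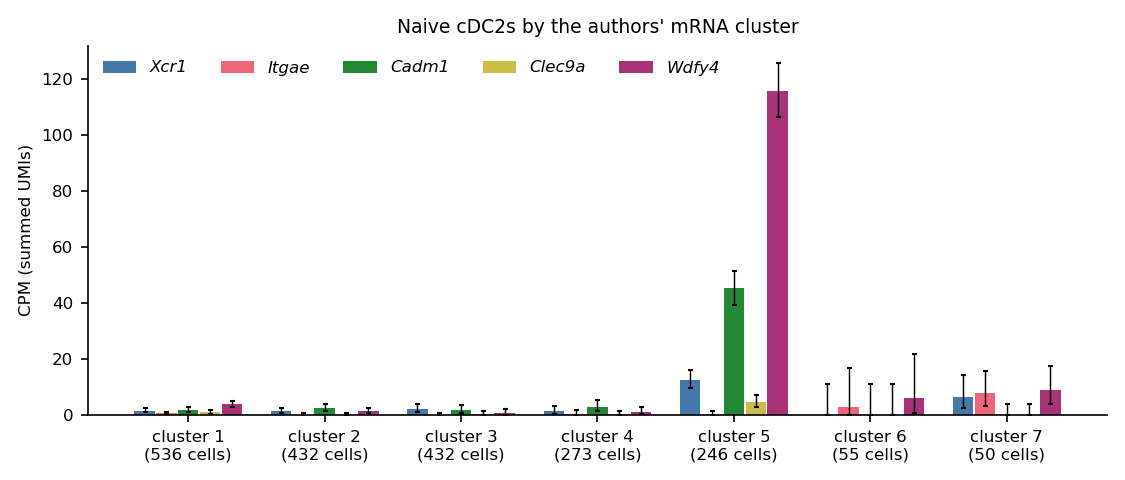
The 5 genes in naive cDC2s by the authors' mRNA cluster (CPM of summed UMIs, exact 95% Poisson intervals). *Wdfy4* (116 CPM), *Cadm1* (45.2 CPM) and *Xcr1* (12.7 CPM) are highest in cluster 5, and *Itgae* is not.

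*Itgae* was at 8.11 CPM (6.40 to 10.1) in naive cDC1s, from 77 UMIs in 42 of 578 cells, and at 0.188 to 0.867 CPM in the other naive classes. The log2 ratio to the other classes was 2.58 (2.20 to 2.89). Most of this signal lay in cells that also held T cell transcripts. Of the 578 naive cDC1s, 78 held a UMI of *Cd3e* or *Trac*, which encode parts of the T cell receptor complex, and 36 of these 78 cells held 68 of the 77 *Itgae* UMIs. Without the 78 cells, *Itgae* was at 1.12 CPM (0.513 to 2.13), 9 UMIs in 500 cells, against 0 to 0.270 CPM in the other classes counted in the same way. Counted so, *Xcr1* was at 15.2 CPM, *Cadm1* at 28.9 CPM, *Clec9a* at 5.11 CPM and *Wdfy4* at 9.85 CPM in naive cDC1s. In papain cDC1s *Itgae* was at 0.651 CPM (0.0788 to 2.35), 2 UMIs in 235 cells, and in papain LCs at 1.2 CPM (0.751 to 1.82), with overlapping intervals.

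The cells with T cell transcripts also stood apart by antibody. The 36 naive cDC1s with UMIs of *Itgae* and of *Cd3e* or *Trac* had a median XCR1 value of 0.321 (quartiles 0.249 and 0.404) and a median CD103 value of 1.95 (1.64 and 2.49), and their median CD172a value was 1.10. Over the 500 naive cDC1s without *Cd3e* or *Trac*, the medians were 1.31 for XCR1, 1.26 for CD103 and 0.116 for CD172a. Antibody values here are natural logarithms of 1 plus an antibody's ratio to the geometric mean of all 12 in the cell. The 8 genes of the T cell list summed to 215 CPM in naive cDC1s against 17.8 to 84.7 CPM in the other naive classes, and to 31.6 CPM in papain cDC1s against 12.2 to 23.5 CPM. None of the 8 was at 0 in any class. What these cells are was not tested.

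**Figure D3:**
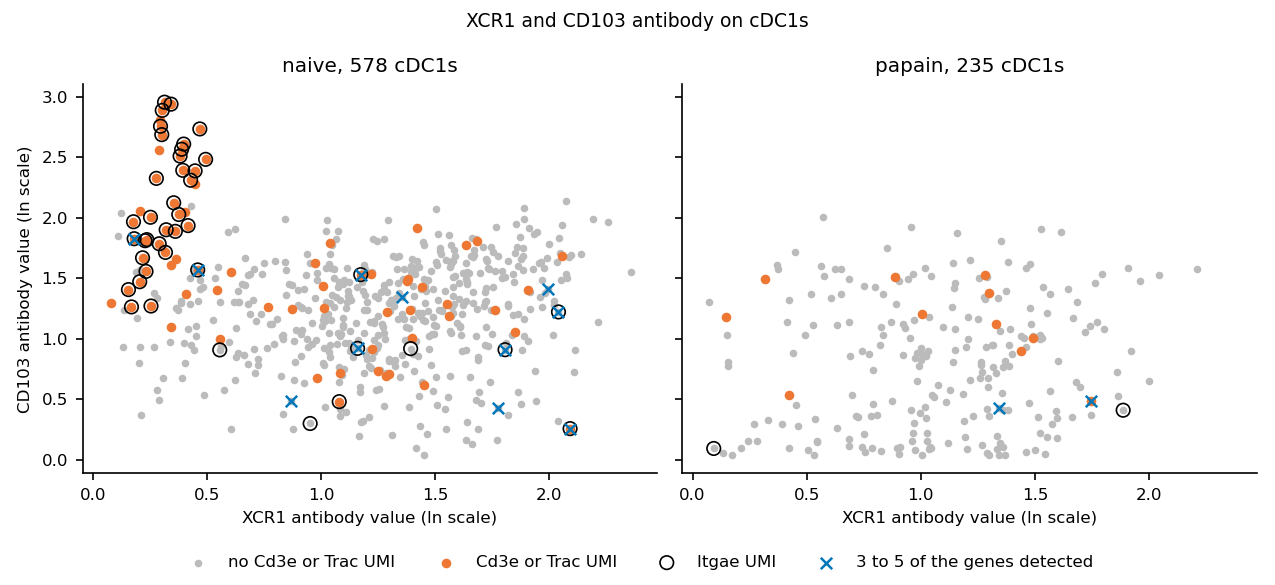
XCR1 against CD103 antibody value (natural logarithm scale) in single cDC1s of the naive and papain libraries. Naive cells with a UMI of *Itgae* (circles) and of *Cd3e* or *Trac* (orange) lie mostly at low XCR1 and high CD103, and cells with 3 to 5 of the genes detected (crosses) are spread over both axes.

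The surface protein and the mRNA of the same cells could be set side by side for XCR1 and CD103. The median XCR1 antibody value was 1.26 in naive and 1.13 in papain cDC1s, from medians of 171.5 and 81 antibody counts per cell. The other classes had medians of 0.111 to 0.141 (naive) and 0.0346 to 0.109 (papain). The median CD103 value was 1.30 in naive and 0.838 in papain cDC1s, from 191.5 and 56 counts, and 0.0828 to 0.211 in all other classes. XCR1 antibody was at a median of 1.39 on the 55 naive cDC1s with an *Xcr1* UMI and at 1.25 on the 523 without, and at 1.32 and 1.10 on the 16 and 219 papain cDC1s. Of the 55 naive cells, 12 also held a *Cd3e* or *Trac* UMI and had a median XCR1 value of 0.317, while the other 43 were at 1.45. The 15 papain cells with an *Xcr1* UMI and no such transcript were at 1.30.

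**Figure D4:**
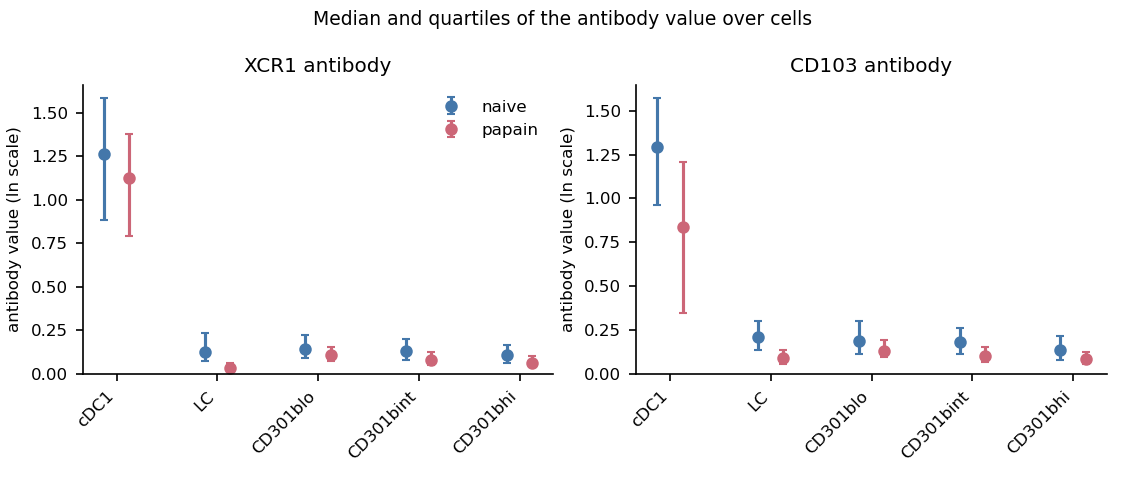
Median and quartiles over cells of the XCR1 and CD103 antibody values (natural logarithm scale) by class and library, for cells with both data types. In cDC1s XCR1 is at 1.26 and 1.13 and CD103 at 1.30 and 0.838 in the naive and papain library, and the other classes have medians of at most 0.211.

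When naive cDC1s were divided into 3 ranges of XCR1 antibody of nearly equal cell number, *Xcr1* was at 10.0 CPM (6.78 to 14.3) in the lowest, 7.94 CPM (5.09 to 11.8) in the middle and 30.4 CPM (24.9 to 36.8) in the highest range. The share of cells with a UMI was 8.81%, 8.29% and 11.5%, with overlapping intervals. When at most 1 UMI was counted per cell, the log2 ratio of the highest to the lowest range went from 1.51 (0.95 to 2.08) to 0.13 (-0.71 to 0.97). In papain cDC1s the levels were 3.14, 9.06 and 15.1 CPM from 3, 9 and 17 UMIs. Spearman's rho over cells was 0.0327 (578 naive cells) and 0.0963 (235 papain cells), as a description over cells that share a library.

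For CD103 the same ranges gave *Itgae* at 3.69, 1.97 and 18.5 CPM in naive cDC1s, highest in the range with the most CD103. Without cells holding *Cd3e* or *Trac*, the *Itgae* UMIs numbered 8, 1 and 0 in ranges with CD103 medians of 0.803, 1.26 and 1.63. The intervals of the lowest range (1.25 to 5.69 CPM) and the highest (0 to 1.39 CPM) overlapped. The log2 ratio of the highest to the lowest range was -1.96, with an interval of -1.96 to -0.42, and the 8 UMIs lay in 5 cells. For the 166 cells with the most CD103, in which no *Itgae* UMI was found, 3 counts would be 1.81% of cells and 1.13 CPM, and the exact upper limits were 2.20% and 1.39 CPM. In papain cDC1s both *Itgae* UMIs fell in the lowest range, where the median CD103 value was 0.168, and none in the middle and highest, with medians of 0.846 and 1.43. In neither library was an *Itgae* UMI therefore found in the cDC1s with the most surface CD103 and no T cell transcript. The upper limit for the 74 such papain cells was 3.83 CPM. Levels below these upper limits cannot be told from none. *Itgb7*, the gene of the partner chain, was at 22.3 CPM in naive and 4.23 CPM in papain cDC1s.

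Between the libraries, the levels of 4 of the 5 genes were lower and that of *Clec9a* was higher in papain than in naive cDC1s. The log2 ratio was -0.77 (-1.33 to -0.24) for *Xcr1*, -2.46 (-3.11 to -1.39) for *Itgae*, -1.02 (-1.50 to -0.57) for *Cadm1*, -1.17 (-1.89 to -0.47) for *Wdfy4* and 0.78 (0.17 to 1.37) for *Clec9a*. Without the cells holding *Cd3e* or *Trac*, it was -0.61 for *Xcr1*, -0.33 for *Itgae*, -1.05 for *Cadm1*, -1.18 for *Wdfy4* and 0.85 for *Clec9a*. Over all genes that reached 10 CPM in either group, with all cells counted, the median log2 ratio was 0.02. The share of all genes that were lower was not counted. Some markers of other cells were also lower in papain cDC1s, and others were not. The 6 T cell genes that reached 10 CPM were all at least 2-fold lower, beside 4.75% of all genes that reached it. *Lyz2*, a myeloid lysozyme, was at 8.46 against 108 CPM. No UMI of *Siglech*, *Ccr9*, *Ly6d*, *Mgl2*, *Clec10a*, *Cd209a*, *Il17a* or *Nkg7* was found in papain cDC1s, compared with 5.69 to 7.90 CPM in naive cDC1s. By contrast, *Bst2* and *Tcf4* of the plasmacytoid DC list were higher, at 250 against 150 CPM and 71.0 against 55.4 CPM. So were the cDC2 markers *S100a4* (1223 against 786 CPM) and *Irf4* (26.7 against 19.4 CPM). *Ighm* of B cells was at 28.6 against 25.4 CPM, with overlapping intervals. Apart from the T cell transcripts, the part of these markers in the values was not tested. Some of the markers were lower after papain in CD301blo cDC2s too. There *Lyz2* was at 79.4 against 650 CPM, *Clec10a* at 0.166 against 27.9 CPM and *Siglech* at 0.222 against 3.36 CPM. *Ly6d* was not lower there, at 4.38 against 4.23 CPM, and in LCs *Lyz2* was at 36.6 against 26.5 CPM. Of the 5 genes, some were also lower in other classes after papain and others were not. *Cadm1* had a log2 ratio of -1.23 (-1.55 to -0.91) in LCs and -1.31 (-1.69 to -0.92) in CD301blo cDC2s. In CD301blo cDC2s the ratio was -3.32 (-3.64 to -2.99) for *Wdfy4*, -2.25 (-2.66 to -1.76) for *Xcr1* and -1.77 (-1.89 to -1.30) for *Clec9a*, the gene that was higher in papain cDC1s. *Itgae* was higher in papain LCs, with 22 UMIs against 1 and a log2 ratio of 0.89 (0.02 to 1.16), and the ratio of *Xcr1* in LCs was 0.08 (-0.73 to 0.67). The difference between the classes was not tested. In this kind of sum, fewer cells with the mRNA and less mRNA per cell cannot be told apart.

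A threshold of 2-fold was then set for every gene that reached 10 CPM in at least one of the groups compared. Of the 5 genes 3 entered the comparison of naive cDC1s with the other classes, and *Xcr1* and *Cadm1* were at least 2-fold higher and none lower, beside 4.05% of 7515 genes higher and 6.07% lower. For papain 2 of 5 entered, *Cadm1* and *Clec9a*, and both were higher, beside 3.42% of 7257 genes higher and 5.86% lower. Between papain and naive cDC1s 4 of 5 entered, of which *Cadm1* and *Wdfy4* were at least 2-fold lower and none higher, beside 4.75% of 7238 genes lower and 2.25% higher. A gene that reaches 10 CPM in only 1 of the groups compared had to differ between them. Among the genes called, that was so for *Xcr1* in the naive and for both genes in the papain comparison, through cDC1s. It was also so for *Wdfy4* in the last comparison, through naive cDC1s. These calls describe the levels and support nothing further.

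The genes were found together in few cells. Of the 578 naive cDC1s, 199 held 1 of the 5 genes, 40 held 2 and 11 held 3 to 5. The 11 cells held 94 of the 160 *Xcr1* UMIs, 34 of the 52 *Clec9a* UMIs and 55 of the 109 *Wdfy4* UMIs, against 34 of the 261 *Cadm1* UMIs. They were deeper, with a median of 28948 UMIs against 15594 in the 328 cells with none, and 4 of them held a *Cd3e* or *Trac* UMI. After papain 2 of 235 cDC1s held 3 or more. Among cDC2s, 7 of 658 naive CD301blo cells held 3 or more and none of the 1470 papain CD301blo cells did.

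Other genes had different levels in the 11 cells, which were chosen by their mRNA, so that no test applies. *Naaa*, a lysosomal amidase, was at 354 CPM (294 to 424) in them and at 1.36 CPM (0.546 to 2.80) in the cells with none of the 5 genes. *Ppt1*, a lysosomal thioesterase, was at 399 against 10.1 CPM, *Cd8a* at 307 against 4.26 CPM, *Rab7b* at 251 against 1.16 CPM and *Cd74*, the invariant chain, at 16157 against 4169 CPM. *Fscn1*, the actin bundler of mature migratory DCs, was lower in them, at 662 CPM (578 to 754) against 2791 CPM (2746 to 2837). *Ccr7*, the receptor that guides DCs to lymph nodes, was at 1896 (1752 to 2048) and 1968 CPM (1930 to 2007), with overlapping intervals. *Siglech*, a plasmacytoid DC gene, was at 145 CPM, all of it in 2 of the 11 cells. The part of depth and of cells holding more than 1 cell's RNA in these values was not tested.

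**Figure D5:**
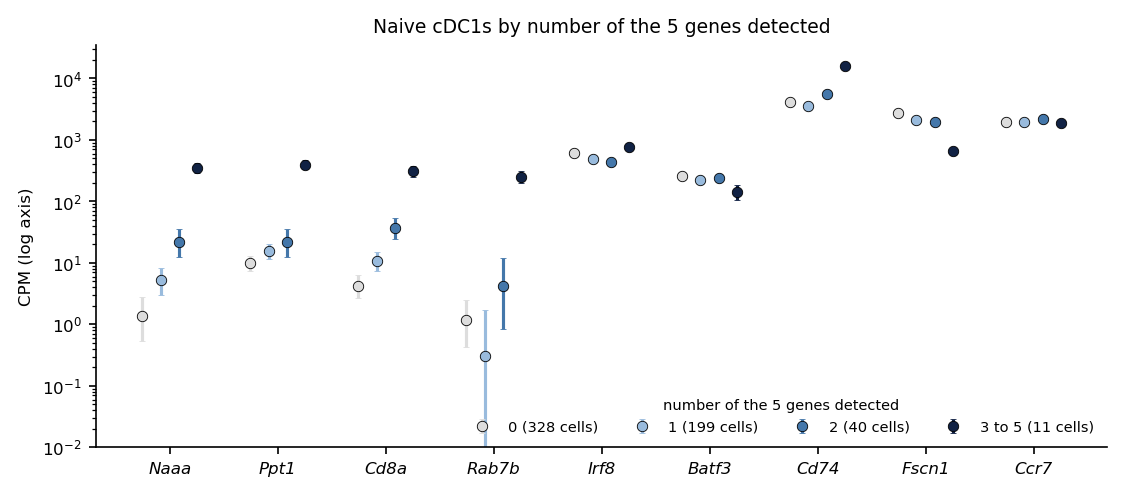
Levels of 9 other genes in naive cDC1s (CPM, log axis, exact 95% Poisson intervals) by how many of the 5 genes were detected in the cell. *Naaa*, *Ppt1*, *Cd8a*, *Rab7b* and *Cd74* are highest and *Fscn1* is lowest in the 11 cells with 3 to 5 genes, while *Ccr7* has overlapping intervals in the cells with none and with 3 to 5.

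Other genes of the pathway were taken from lists of cDC1 genes and of the cross-presentation machinery. Of 36 listed machinery genes, 33 were present and 30 reached 10 CPM in the naive comparison, in which 2 were at least 2-fold higher in cDC1s than in the other classes and 3 were lower, beside 4.05% of all genes higher and 6.07% lower. The higher genes were *Tap1*, a chain of the peptide transporter, at 313 CPM against 138 CPM, and *Psmb9*, a subunit of the immunoproteasome, at 749 against 276 CPM. The lower genes were *Cybb*, the catalytic subunit of the phagocyte NADPH oxidase, at 9.37 against 41.2 CPM, *Syk*, the kinase downstream of CLEC9A, at 18.3 against 70.6 CPM, and *Rab43* at 28.4 against 62.5 CPM. The median log2 ratio was 0.36 over the 30 genes and -0.08 over all genes tested. In the papain library none of 28 was 2-fold higher, *Syk* alone was lower (28.0 against 57.8 CPM), and the median was 0.30 beside -0.12 over all genes.

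Of the 29 other cDC1 genes listed, 25 were present. In the naive library 12 of them reached 10 CPM, and *Ifi205* (21.4 against 3.0 CPM), *Rab7b* (10.0 against 2.34 CPM), *Xlr* and *Cd24a* were at least 2-fold higher in cDC1s, beside 4.05% of all genes. The value of *Rab7b* rested on few cells, as it was at 251 CPM in the 11 cells with 3 to 5 of the genes and at 1.16 CPM in the 328 cells with none, below the level of the other classes. In the papain library 10 reached 10 CPM, and *Ifi205* (75.5 against 8.27 CPM), *Cd8a* (36.1 against 11.5 CPM), *Naaa* and *Tlr11* were, beside 3.42% of all genes. In naive mice the last 3 of these 4 genes were lower in cDC1s than in the other classes, with log2 ratios of -0.85 (-1.06 to -0.63) for *Cd8a*, -0.36 (-0.60 to -0.12) for *Naaa* and -0.66 (-1.05 to -0.28) for *Tlr11*. *Tlr3*, the double-stranded RNA sensor of cDC1s, was at 1.05 CPM in naive cDC1s, and no UMI of it was found in papain cDC1s, where 3 counts would be 0.976 CPM. Of the 7 cDC1 transcription factors *Irf8* alone was 2-fold higher in each library, and *Nfil3* was lower in naive cDC1s, at 55.4 against 149 CPM. *Il12b*, the p40 chain of interleukin 12, was at 330 CPM in naive and 279 CPM in papain cDC1s, against 127 and 44.0 CPM in the other classes.

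Between papain and naive cDC1s, 29 machinery genes reached 10 CPM, of which 2 were at least 2-fold higher and 1 was lower, beside 2.25% and 4.75% of all genes. *Ifi30*, a thiol reductase, was at 1599 against 624 CPM and *Psme2*, a proteasome activator subunit, at 398 against 180 CPM, while *Rab27a* was at 3.58 against 10.0 CPM. The median log2 ratio of these 29 genes was 0.25, and that of all genes 0.02. The 7 transcription factors had a median of 0.22, and none differed 2-fold.

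Over the 10 groups of class and library, the level of *Xcr1* went most closely with that of *Clec9a* among the 5 genes (Pearson's r = 0.940 of log2 values), followed by *Itgae* (0.724), *Wdfy4* (0.698) and *Cadm1* (0.613). The groups share 2 libraries, and the correlations are descriptions. The levels included the naive cDC1s that held a *Cd3e* or *Trac* UMI, and the correlations were not repeated without them. Among 6049 genes with at least 20 CPM in some group, those closest to *Xcr1* were *Ppt2*, *Icos*, *S1pr1*, *Neat1* and *Cd3e*, at 0.913 to 0.937. *Clec9a* was closest to *Slc8b1* (0.95), *Camk1d*, *Slc25a20*, *St3gal5* and *S1pr1*, and *Wdfy4* to *H2-Ob* (0.968), *Tgfbi*, *Cyth4*, *Alox5ap* and *Plekho2*, all of which were highest in naive CD301blo cDC2s. *Cadm1* was closest to *Clk4* (0.967), *9530078K11Rik*, *Gm37494*, *Dennd1b* and *Trim7*, and *Itgae* to *Dap3* (0.956), *Cst6*, *Dnaja2*, *Cand1* and *Cops9*.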

How the data were processed

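CITEseq data from 1 naive and 1 papain library were used. The authors processed the reads with Cell Ranger 3.0.1 and Partek on mm10, per the labels. For mRNA the authors deposited log2 values of CPM plus 1 for each cell. UMIs were recovered from them, and 100% of the values up to 50 UMIs were whole within 0.02. The deposited numbers of expressed genes and antibody totals are counts, the deposited expression total is a score (a sum of log2 values), and the deposited mitochondrial value, in percent, was recomputed from UMIs. Antibody data were deposited as natural log (ln) values, with 1 added to both the count and the final ratio. Medians were 13764 and 14738 UMIs and 7586 and 3852 antibody counts per cell. A further 429 naive and 290 papain cells without antibody data had no class and entered no comparison, and 2 barcodes occurred in both libraries.

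UMIs were summed per class and library and scaled to CPM (Python 3.11.15, scipy 1.17.1). Intervals (95%) are exact Poisson for CPM, Clopper-Pearson for shares and exact conditional binomial for log2 ratios, which were taken with 1 CPM added. Thinned shares are expected shares at 8392 UMIs per cell, with shallower cells left out. No doublet caller was run, and the deepest 5% of cells were left out as an alternative. The steps were tested on simulated Poisson counts. These lacked the uneven spread of UMIs over cells seen here, which the intervals do not cover. The genes and lists were chosen with earlier results of these data known. Genes were named as members of those lists or, for likeness, as the 5 with the highest correlation. The number of mice per library is not given in the sources used here. Sequences and coordinates are from RefSeq, and no promoter was used for *Itgae* and *Cadm1*.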

Additional observations from a re-analysis of the deposited data

Results flagged for a closer look

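*Wdfy4* was lower in cDC1s than in the other classes together in the naive library (log2 ratio -0.57) and higher in the papain library (1.06). The difference between the libraries was not tested. The other classes together were at 17.5 CPM in the naive and 1.67 CPM in the papain library, and cDC1s at 11.5 and 4.56 CPM. Of the 637 naive UMIs of the other classes, 566 lay in the 246 cells of cDC2 cluster 5. The naive ratio therefore rested largely on that cluster, and the ratio without it was not computed.

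*Itgae* was also found in the cells without antibody data, which entered no comparison. It was at 10.5 CPM (8.32 to 13.2) in 429 naive and at 14.1 CPM (9.98 to 19.4) in 290 papain cells, above what 3 counts would give. Of the 77 naive UMIs 73, and of the 38 papain UMIs 37, lay in cells that held a *Cd3e* or *Trac* UMI, which were 237 of the 429 and 241 of the 290 cells. *Itgb7* was at 47.5 and 83.9 CPM in these cells. What the cells are was not tested.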

How the results depend on the processing

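No paired analysis was possible because each condition has 1 library. Of 135 values of a gene's log2 ratio under the alternatives, 134 kept the sign of the reported value. The exception was *Itgae* in papain cDC1s against the other classes, whose reported interval included 0. A larger pseudocount cannot change the sign of such a ratio, so that alternative does not test it. A kept sign also leaves the size open. Among the main results under the alternatives, 51 were classed as the same, 7 as moved and 1 as reversed. Among the other results, 111 were classed as the same and 34 as moved. The count of genes highest in cDC1s ranged from 3 to 5. The median log2 ratio of the 5 genes, 1.72 in naive cDC1s against the other classes, was 1.28 without cells holding a *Cd3e* or *Trac* UMI and 1.21 with at most 1 UMI of a gene counted per cell. With a pseudocount of 10 CPM it was 0.78, that of papain cDC1s was 0.86 in place of 1.92, and that of papain against naive cDC1s was -0.56 in place of -1.02 (-0.61 without cells holding a *Cd3e* or *Trac* UMI). Of the comparisons with antibody, *Xcr1* in naive cDC1s (1.51 for the highest against the lowest XCR1 range) was 0.13 with at most 1 UMI per cell. *Itgae* by CD103 was -1.96 in place of 2.05 in naive and -1.69 in place of -1.62 in papain cDC1s without cells holding a *Cd3e* or *Trac* UMI. Counting at most 1 UMI, and leaving these cells out of the comparisons with antibody, were chosen after seeing the data. In the 235 papain cDC1s 3 counts are 0.976 CPM, which limits what can be said of *Itgae* there.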
